A study of Rattus norvegicus with 6 samples.

Results

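The Fc receptor gene Fcgr2b and 9 genes that mark macrophages and other leukocytes (Fcer1g, Cd68, Csf1r, Ptprc, Lyz2, Cd53, Cd48, Cd37 and Aif1) were followed in cultured rat cardiac fibroblasts. All probe sets whose platform annotation names 1 gene were searched for these 10 genes. This gave 12 of the 8740 probe sets on the array, for 8 of the 10 genes and of the 4736 genes that the array names in this way. No probe set was assigned to Fcer1g or Cd68. Fcgr2b was selected on its higher signal with pertussis toxin in this same comparison, so its difference between the groups is described here and supports nothing further. The other genes were listed as markers with earlier results of these arrays in view.

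Primary fibroblast cultures had been prepared from heart ventricles of Sprague-Dawley rats aged 1 to 2 days and grown in 6-well plates, with 3 samples given pertussis toxin (PTX) for 24 h and 3 given water. PTX, a toxin of Bordetella pertussis, transfers ADP-ribose to the alpha subunits of Gi and Go proteins, which then no longer respond to their receptors. Its dose is not stated in the labels. Each sample was read on its own 1-colour Affymetrix array, and the labels do not tell whether replicates were separate cell preparations, so the spread between them may be technical. The question is whether the higher Fcgr2b signal went with other markers of macrophages or stood without them.

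Fc receptors bind the constant part of antibodies. Fcgr2b encodes the low-affinity IgG receptor that inhibits the cell carrying it, through an immunoreceptor tyrosine-based inhibitory motif (ITIM) that recruits phosphatases. The activating Fc receptors signal instead through partner chains with an activation motif (ITAM), chiefly the common gamma chain encoded by Fcer1g. Fcgr2b is expressed by macrophages, B cells, mast cells and some endothelial cells, and resident macrophages are a normal cell type of the heart that can be carried into primary cultures. In RNA from a whole culture, fewer cells of a type and less RNA per cell cannot be told apart.

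Array medians lay between 63.1 and 68.85, and control replicate 1 stood apart, with correlations of 0.952 to 0.960 with the other 5 arrays, against 0.978 to 0.985 among those 5. Some values are therefore given without that array beside those of all 6. All 13 measured fibroblast markers passed the filter on low signals described below, but so did 11 of 12 measured cardiomyocyte markers, and the brightest of these, Myl2, lay above the 99.9 percentile of probe sets on every array. Signals of different probe sets are not on a common scale of transcript level, so this gives no share of cells.

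Fcgr2b was read by 1 probe set. Its signals were 596.1, 591.5 and 647.6 on the PTX arrays, against 323, 297.5 and 353.8 on the control arrays. All PTX values lay above all control values, and the lowest PTX signal was 1.67 times the highest control signal. The means were 612 ± 31.1 with PTX and 325 ± 28.2 in controls (SD, n = 3 each). On the scale of log2(signal + 16), used throughout because it damps the noise of low signals, this was a log2 change of 0.88 ± 0.13 (SE), or 1.84-fold. Leaving out control replicate 1 gave 0.88 as well, and the 16 other settings ranged from 0.80 to 0.94.

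In limma fitted to the 5244 probe sets that passed the filter, Fcgr2b ranked 10 by p among the higher probe sets and had an adjusted p of 0.0876. It thus missed the threshold of 0.05 that 4 probe sets passed (0.0763% of those tested, all 4 higher). Without control replicate 1 its adjusted p was 0.00771, where 98 probe sets were higher (1.87%) and 18 lower (0.343%). It was the only member past the threshold in any of the 16 settings, and passed in this setting only. With the other settings its adjusted p lay between 0.0514 and 0.599, the highest being without PTX replicate 2. Since the gene was chosen for this difference, these values place it among the other probe sets and are no test of it. In RefSeq's gene order Fcgr2b lies next to Fcgr3a and Fcgr2a, whose extracellular parts resemble its own, and 2 probe sets that the annotation gives to Fcgr2a together with another gene were left out. Cross-hybridisation between these receptors was not tested, as no probe sequences were used here.

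**Figure D1:**
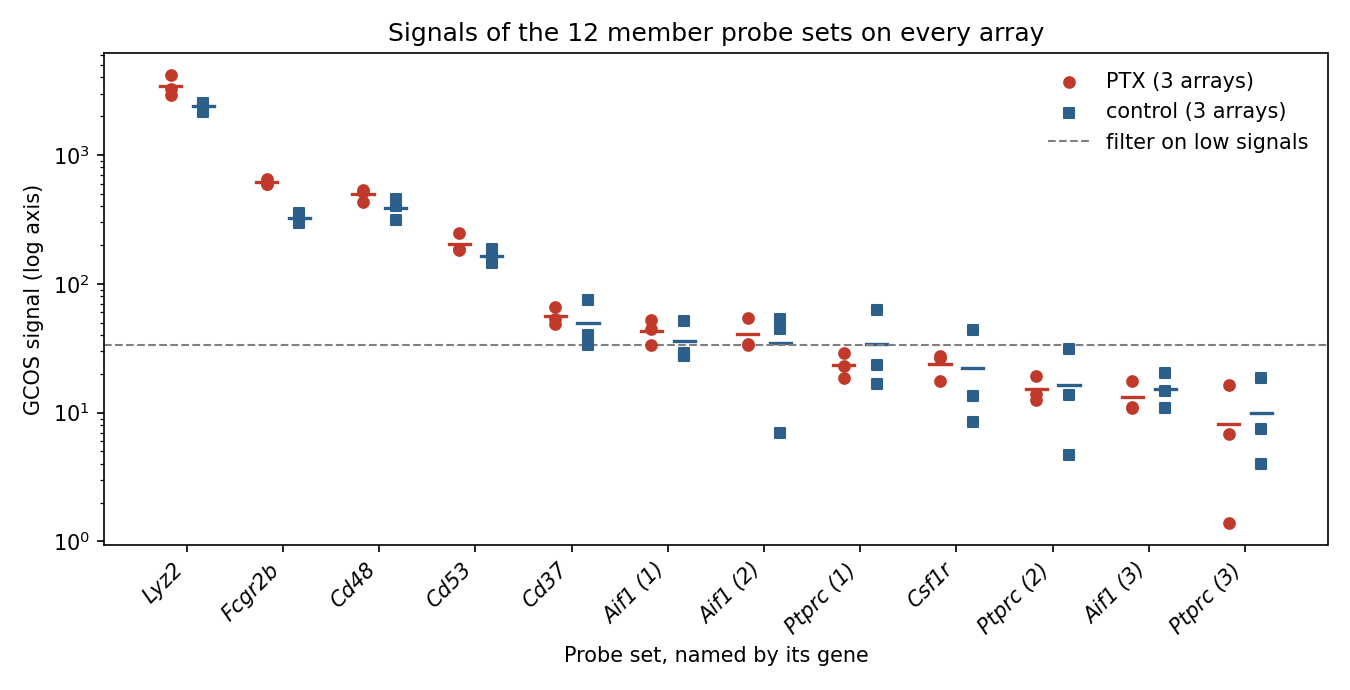
GCOS signal (vertical log axis) of the 12 member probe sets on the 3 PTX arrays (circles) and the 3 control arrays (squares), with bars at the group means and a dashed line at the filter, a signal of about 33.3. Numbers in brackets count the probe sets of a gene from the brightest down. The groups separate for Fcgr2b and Lyz2 and overlap for the other 10 probe sets, 5 of which lie under the filter.

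The filter removed probe sets whose mean log2 value lay under the 40th percentile, which corresponds to a signal of about 33.3. Of the 12 member probe sets 7 passed it, for the 6 genes Fcgr2b, Lyz2, Cd48, Cd53, Cd37 and Aif1. The 7 all had positive log2 changes, against 47.1% of all tested probe sets. Among them an Aif1 probe set had a mean of control log2 values under the filter, with a signal of 6.9 on control replicate 2, and so passed through its PTX values. Its mean control signal on the linear scale was 34.9. Of all 12, 9 were positive and 3 negative, with a median of 0.19, against a median of -0.03 and 45.4% positive over all 8740 probe sets. In 2 of the 7 tested probe sets, Fcgr2b and Lyz2, every PTX array lay above every control array, which held for 12.0% of tested probe sets and 8.91% of all probe sets. In 0 of the 7 did every PTX array lie below every control array (10.6% of tested and 9.06% of all probe sets). With limma 0 of the 7 passed an adjusted p of 0.05, and 2, again Fcgr2b and Lyz2, had an unadjusted p under 0.05, as did 12.6% of all tested probe sets. As this is the contrast from which Fcgr2b was chosen, nothing is read from these counts.

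Csf1r and Ptprc are among the genes that define macrophages and leukocytes most directly. Csf1r encodes the receptor for the growth factor on which macrophages depend. Its signals were 17.6, 27.3 and 26.5 with PTX, against 44.1, 13.5 and 8.4 in controls. The control values spread more widely than the PTX values and enclosed all 3 of them. The log2 change of 0.17 became 0.56 without control replicate 1 and -0.09 in the lowest setting, so it has no settled direction.

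Ptprc encodes CD45, the phosphatase found on all nucleated blood cells. Its brightest probe set had 29.2, 18.6 and 22.8 with PTX, against 62.1, 16.8 and 23.3 in controls, with overlapping groups. The log2 changes of its 3 probe sets were -0.24, 0.02 and -0.11, and each took the opposite sign under at least 1 other setting. All 3 lay under the filter, as did that of Csf1r. Signals under the filter ranged from 1.4 to 62.1 over these and the dimmest Aif1 probe set. GCOS detection calls were not used, so such signals set no level and do not show that the transcripts were missing.

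Lyz2 encodes lysozyme, a secreted enzyme that cleaves bacterial cell walls and is made in quantity by macrophages. Its signals were 3276.3, 4149.7 and 2908.4 with PTX, against 2138.6, 2516.8 and 2486.5 in controls. The groups did not overlap, although the lowest PTX array was nearer to the controls than to the highest PTX array. The means were 3445 ± 638 and 2381 ± 210 (SD, n = 3 each), a log2 change of 0.52 ± 0.16 (SE) or 1.43-fold, with a limma adjusted p of 0.303. Its probe set belongs to those named rc_AA892, rc_AA893 or rc_AA894, which were low on control replicate 1, by a median of -0.33 on the log2 scale relative to the mean of the other controls (0.05 over all tested probe sets). The 420 tested probe sets of these names had a median of 0.29 on the log2 scale, and 0.16 without that array, where Lyz2 had 0.44. Their part in the Lyz2 difference was not tested.

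Cd48, Cd53 and Cd37 encode surface proteins of leukocytes. CD48 is an adhesion molecule of the SLAM family and a ligand of CD2 in rodents. Cd48 had 519.3, 430.4 and 538.3 with PTX, against 314.3, 398.7 and 458 in controls. The groups overlapped, since the second PTX array lay below the third control array. The log2 change was 0.34 ± 0.18 (SE, limma adjusted p = 0.449), and 0.20 without control replicate 1, which had the lowest Cd48 signal.

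CD53 and CD37 are tetraspanins, proteins that organise other receptors in the plasma membrane. Cd53 had 249, 181.7 and 184.9 with PTX, against 166.4, 184.7 and 146 in controls. The first PTX array stood above the rest, and the other PTX arrays lay within or just above the range of the controls. Its log2 change was 0.28 ± 0.18 (SE, limma adjusted p = 0.509). Cd37, found mainly on B cells, had 48.7, 53.1 and 66.3 with PTX, against 74.7, 40.2 and 33.6 in controls. The highest and the lowest values were both controls, and the log2 change of 0.18 ± 0.29 (SE) ranged from 0.01 to 0.44 over the other settings.

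Aif1 encodes IBA1, a calcium-binding protein used to stain macrophages and microglia, and was read by 3 probe sets. The brightest had 44.3, 33.3 and 51.9 with PTX, against 51.7, 27.6 and 29.1 in controls. The next had 33.7, 34.2 and 54.7 with PTX, against 53.2, 6.9 and 44.5 in controls. Both overlapped between the groups, with log2 changes of 0.20 and 0.29. The dimmest probe set had -0.10, so the 3 did not share a direction.

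**Figure D2:**
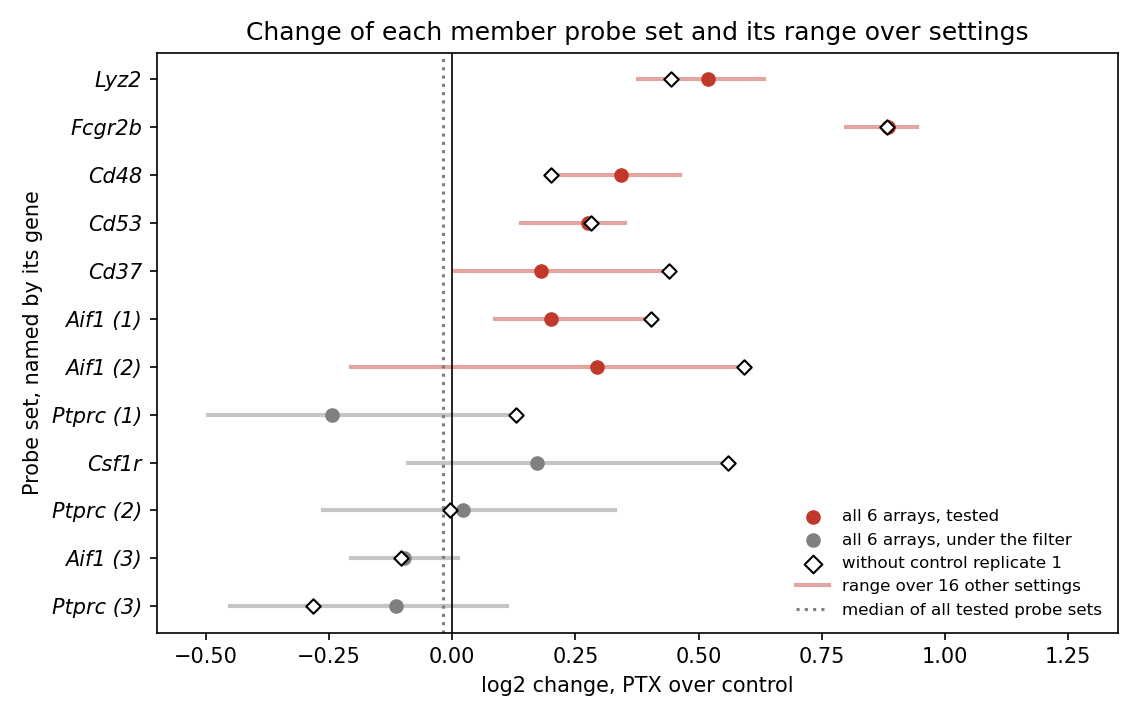
log2 change (horizontal axis, PTX over control) of the 12 member probe sets, with filled points for all 6 arrays, open diamonds for the fit without control replicate 1 and bars for the range over 16 other settings. Fcgr2b has the highest value at 0.88 with a range of 0.80 to 0.94, the other 6 tested probe sets lie between 0.18 and 0.52, and the 5 under the filter lie on both sides of 0.

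The change of Fcgr2b exceeded those of the other 6 tested member probe sets by 0.37 (Lyz2) to 0.70 (Cd37) on the log2 scale. Fcgr2b was chosen for its change in this contrast, so a gap of this kind was favoured by that choice. The gap and the distances below are a description and do not show that Fcgr2b stands apart from the markers. Profiles over the 6 arrays were compared by centring each on its own mean and taking the root mean square distance to Fcgr2b, a measure that includes the difference between the groups. The distance was 0.28 for Lyz2, 0.31 for Cd48, 0.38 for Cd53 and 0.46 for Cd37. It was 0.42 and 0.55 for the 2 tested Aif1 probe sets. Among other tested probe sets with 1 gene symbol, 3.52% were closer to Fcgr2b than Lyz2 was, 6.51% closer than Cd48, 14.5% closer than Cd53 and 32.8% closer than Cd37. The shares closer than the tested Aif1 probe sets were 21.8% and 58.7%. Of the members under the filter, Csf1r had 61.0% closer, the dimmest Aif1 probe set 51.9% and those of Ptprc 75.3%, 79.6% and 88.4%. Lyz2 and Cd48 were thus the nearest members, and Ptprc the farthest. The distance also grows with the spread between replicates, which is wide at low signals. The pooled SD on the log2 scale was 0.43 to 0.49 for the Ptprc probe sets, against 0.10 for Fcgr2b.

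The 5 closest probe sets were of Tmem71, Vcam1, C1s, Vsir and Gda, with log2 changes of 0.77 to 0.87. Vcam1, an adhesion molecule that captures leukocytes on activated endothelium and stroma, had 134.2, 105.3 and 132.2 with PTX, against 63.3, 56.6 and 69.2 in controls. C1s is a protease of the first complement component, Vsir a checkpoint receptor of myeloid and T cells, and Gda the enzyme guanine deaminase. None of the 5 passed in limma (adjusted p of 0.184 for C1s, Vsir and Gda, 0.206 for Vcam1 and 0.222 for Tmem71). Without control replicate 1, C1s (limma adjusted p = 0.0217), Gda (0.0330) and Vsir (0.0431) passed, while Vcam1 (0.0763) and Tmem71 (0.124) did not. The 5 were picked for likeness to Fcgr2b on these same arrays, so their differences and p-values follow from that choice and test nothing. The probe set of Vsir is one of those named rc_AA893, and that of Tmem71 one of the 375 named rc_AA799 or rc_AA800, whose median on control replicate 1 was -0.81 relative to the other controls.

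**Figure D3:**
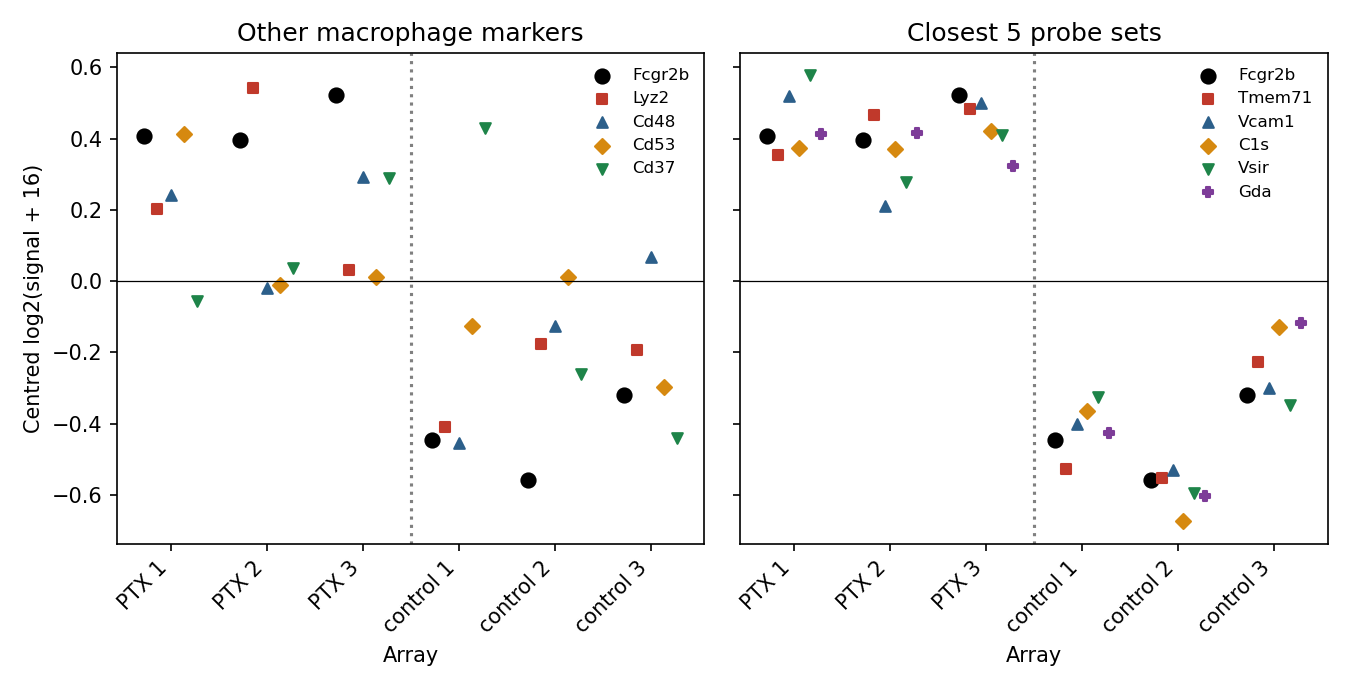
Centred log2(signal + 16) (vertical axis, each probe set minus its mean over 6 arrays) on the 3 PTX and 3 control arrays. The left panel shows Fcgr2b with the markers Lyz2, Cd48, Cd53 and Cd37, and the right panel shows Fcgr2b with the 5 closest probe sets. Those 5 were picked for likeness to Fcgr2b on these arrays. They all lie above 0 on PTX arrays and below 0 on control arrays, as Cd48, Cd53 and Cd37 do not.

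The macrophage marker genes were also compared by the sequence at their start sites, since many genes of myeloid cells are driven by the transcription factor PU.1, which binds purine-rich DNA around a GAGGAA core. RefSeq promoters (GRCr8, 250 bases before to 50 after the start) were matched for 7 of the 10 genes, all but Fcgr2b, Fcer1g and Aif1. The letters GAGGAA, on either strand, stood in 6 of these 7, all but Cd48, against 27.6% of 33469 promoters of the same length. The longer GAGGAAGT, which contains the first, stood in 2 of the 7, Cd53 and Cd37, against 2.42% of promoters. Those of Lyz2, Cd53 and Cd48, the markers besides Fcgr2b that were read well above the filter, are shown 5′ to 3′ with GAGGAA or its reverse complement in capitals. A match is a description of the letters and does not show that a factor binds there.
Lyz2, chr7:54797962-54798261, minus strand: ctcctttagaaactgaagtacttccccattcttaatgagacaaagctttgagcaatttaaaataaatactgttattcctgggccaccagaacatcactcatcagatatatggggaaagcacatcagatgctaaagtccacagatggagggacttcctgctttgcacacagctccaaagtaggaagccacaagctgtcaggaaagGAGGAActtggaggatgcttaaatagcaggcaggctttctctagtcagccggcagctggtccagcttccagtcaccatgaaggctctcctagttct
Cd53, chr2:197087847-197088146, minus strand: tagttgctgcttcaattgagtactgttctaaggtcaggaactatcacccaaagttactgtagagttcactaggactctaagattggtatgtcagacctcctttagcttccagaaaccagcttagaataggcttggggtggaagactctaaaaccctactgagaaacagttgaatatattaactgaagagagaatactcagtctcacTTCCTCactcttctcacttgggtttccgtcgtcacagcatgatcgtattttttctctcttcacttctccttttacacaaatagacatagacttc
Cd48, chr13:86717744-86718043, plus strand: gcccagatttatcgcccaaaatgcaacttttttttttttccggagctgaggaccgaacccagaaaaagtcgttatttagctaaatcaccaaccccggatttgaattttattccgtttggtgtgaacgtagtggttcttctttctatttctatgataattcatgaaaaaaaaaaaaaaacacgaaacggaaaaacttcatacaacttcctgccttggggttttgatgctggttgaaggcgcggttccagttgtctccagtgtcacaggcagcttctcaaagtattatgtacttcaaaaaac

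In Lyz2 and Cd53 the letters lie 46 and 44 bases before the start site, in opposite orientations. Csf1r and Ptprc, which lay under the filter, also hold them, so these letters did not separate markers past the filter from those under it.

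Fcgrt and Fcer2, the other Fc receptor genes that passed the filter, did not share the Fcgr2b pattern. Fcgr2a and Fcgr3a, the receptors named above as most like Fcgr2b, were not among the genes measured, nor was Fcer1g. Of 13 Fc receptor and ITAM adaptor genes 6 were measured and 3 passed the filter, Fcgr2b, Fcgrt and Fcer2. By limma 0 were called in either direction, and 2, Fcgr2b and Fcer2, had an unadjusted p under 0.05. Over all tested probe sets these shares were 0.0763% and 12.6%, so 0 calls are unremarkable in a list of this size. Fcgrt, the neonatal Fc receptor that protects IgG from breakdown and is not particular to leukocytes, had 1596.2, 1635.5 and 1516.3 with PTX, against 2110, 1488.8 and 1548.6 in controls. Its groups overlapped, and its 3 probe sets had log2 changes of -0.10, -0.12 and -0.21, the first being 0.06 without control replicate 1. Fcer2, the low-affinity IgE receptor of B cells, had 24, 67.6 and 40 with PTX, against 117, 96.8 and 78.2 in controls. All PTX values lay below all controls, with a log2 change of -0.97 ± 0.30 (SE) and a limma adjusted p of 0.305, so it did not pass. The IgE receptor chains of mast cells, Fcer1a (0.12) and Ms4a2 (0.03), and the ITAM chain Cd247 (0.32) lay under the filter with overlapping groups. The dimmer probe set of Fcer1a had -0.24 and those of Ms4a2 had 0.33 and -0.23, also under the filter. Such signals set no level, so these genes do not show whether they shared the Fcgr2b pattern.

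Genes that act downstream of Fc receptors held 0 calls in limma, and 0 at an unadjusted p under 0.05 (0.0763% and 12.6% of all tested probe sets). Of 23 listed 16 were measured and 8 passed the filter, with a median log2 change of 0.05 over the 16, 11 of them positive. Syk, the kinase that binds phosphorylated ITAMs, had the smallest p, with 51.9, 59.1 and 54.2 in PTX samples, against 34.4, 35.4 and 37.2 in controls. Its groups did not overlap at these low signals, with a log2 change of 0.46 (limma adjusted p = 0.420), and its other probe set had 0.06 with overlapping groups. The brightest was Prkcd, a protein kinase C, with a log2 change of 0.02.

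Macrophage genes outside the 10 were mixed in direction, with 0 limma calls and 0 at an unadjusted p under 0.05 (0.0763% and 12.6% of all tested probe sets). Of 34 listed 13 were measured and 8 passed the filter, 5 of the 13 positive and 8 negative, with a median log2 change of -0.27 (-0.10 when control replicate 1 was left out). Over the 8 past the filter the median was 0.05, of which 5 were positive, so the negative median rests on the 5 under the filter, all of them negative, whose signals set no level. The sum of their signals was 5336 to 6066 on PTX arrays and 5056 to 5389 on control arrays, with Lgals3 and Cyba as its largest parts. Lgals3, encoding galectin-3, is made by fibroblasts as well and had a log2 change of 0.26 (limma adjusted p = 0.447), or 0.16 without control replicate 1. Its signals were 3347.2, 2987.4 and 3127.5 with PTX, against 2287.5, 2876.9 and 2768.5 in controls, and all PTX values lay above all controls. C1qb, a complement chain made mainly by macrophages, ran the other way with 216.7, 207 and 174.8 in PTX samples, against 339.6, 256.3 and 215.7 in controls. The groups overlapped by the first PTX array, with a log2 change of -0.39 (limma adjusted p = 0.438), or -0.23 without control replicate 1. Its other probe set had -0.16, or -0.05 without that array, also with overlapping groups.

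Related families held 0 limma calls, with 1 lysosomal gene, Ctsh, at an unadjusted p under 0.05 (0.0763% and 12.6% of all tested probe sets). The 6 measured colony-stimulating factor and receptor genes had a median log2 change of 0.04 (0.17 without control replicate 1, and -0.27 over the 3 past the filter), so the list has no settled direction. The brightest, Csf2rb, had -0.27 with overlapping groups, or -0.04 without that array. The 13 lysosomal genes, all past the filter, had a median of 0.04. Ctsh, a cathepsin, had 1395, 1114.9 and 1191.8 in PTX samples, against 961.9, 991.7 and 935.7 in controls (log2 change 0.35, limma adjusted p = 0.366), and the brightest, Psap, had 0.12, or 0.35 without control replicate 1. The other Psap probe sets had 0.17 and -0.07, with overlapping groups. The 9 tetraspanins, which include Cd53 and Cd37, had a median of 0.17. Tspan3 had the highest change there, 1.06, or 0.40 without control replicate 1, its probe set being one of those named rc_AA892, and the brightest, Cd63, had -0.18.

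**Figure D4:**
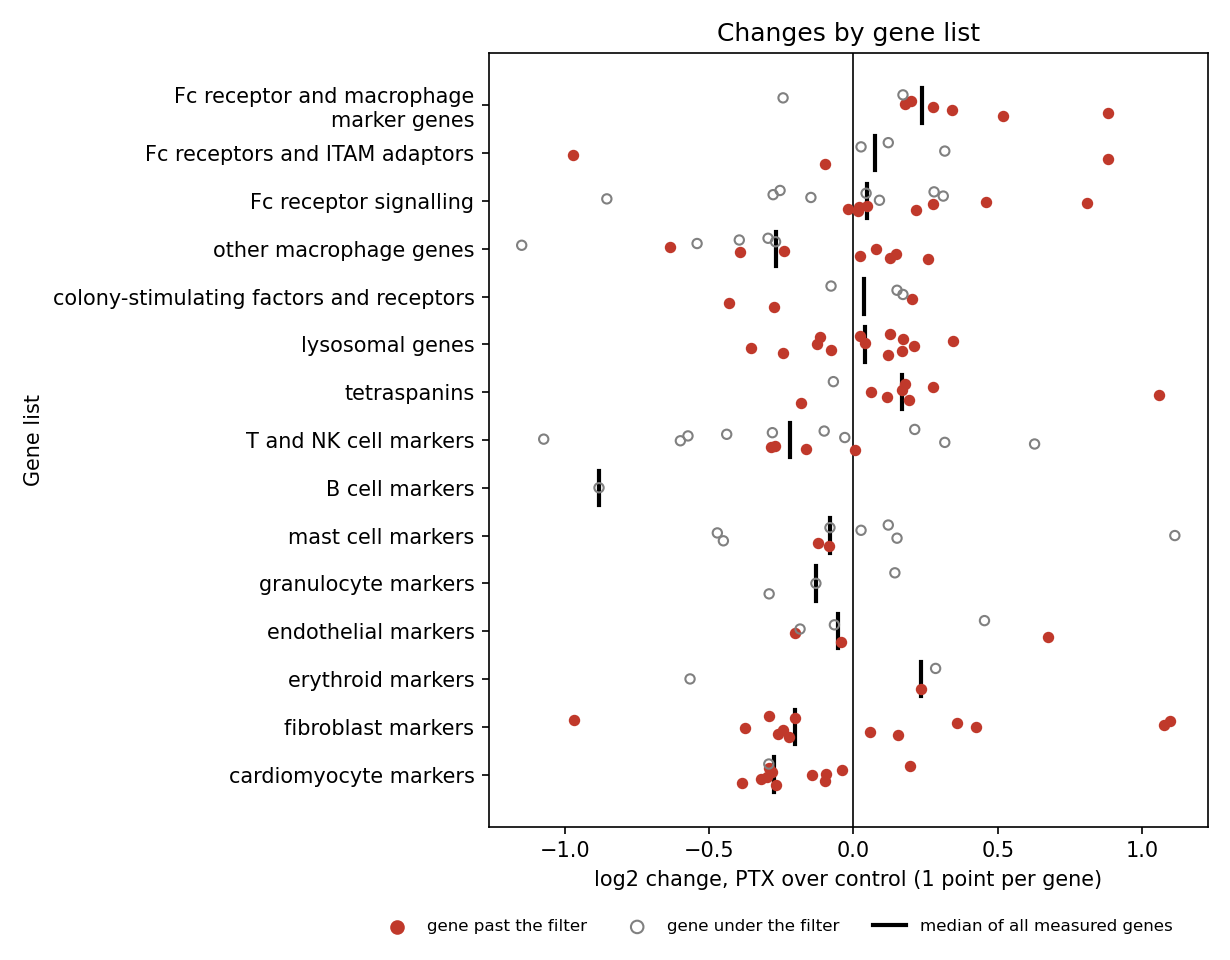
log2 change (horizontal axis, PTX over control) of every measured gene by list, each gene read by its brightest probe set, with filled points past the filter, open points under it and bars at the median of all measured genes. The 8 member genes have a median of 0.24 (0.42 without control replicate 1), other macrophage genes -0.27 (0.05 over the 8 past the filter) and T and NK cell markers -0.22 (-0.07 without control replicate 1).

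Markers of other cells that express Fc receptors or could be in the cultures mostly lay under the filter. Of 14 measured T and NK cell markers 4 passed the filter, with a median log2 change of -0.22 over the 14 and a summed signal of 321 to 357 with PTX and 399 to 450.5 in controls. This median was -0.07 without control replicate 1, -0.09 without control replicate 2, -0.10 with a pseudocount of 64 and -0.09 with all probe sets of a gene averaged. The sums take in the genes under the filter, whose signals set no level. Cd8a, for example, had 65.6 on control replicate 1, against 5.5 and 11.5 on the other controls. Nothing is read from the sums. Lck had the highest signals of the T and NK cell markers (log2 change 0.00), and Gzmb the smallest p (-0.28, limma adjusted p = 0.606). The other Gzmb probe set, under the filter, had 0.28. The measured B cell marker, Cd79b, and all 3 measured granulocyte markers, with Cxcr2 the brightest, lay under the filter. Of 9 mast cell markers 2 passed, Tpsb2 (-0.08) and Cma1 (-0.12), and of 3 erythroid markers 1, Alas2 (0.24). Of 6 endothelial markers 3 passed, with a median of -0.05 over the 6. Selp, a selectin of activated endothelium, had the smallest p among them, with 68.8, 75.7 and 71.3 in PTX samples, against 54, 49.4 and 20.4 in controls (log2 change 0.68, limma adjusted p = 0.397), and Kdr, the brightest, had -0.04. Signals under the filter do not show whether a transcript was present or missing. The B cell and granulocyte lists had no tested gene and so could hold no call. None of these 6 lists held a gene called by limma (1, Selp, at an unadjusted p under 0.05), against 0.0763% and 12.6% of all tested probe sets. Their part in the Fcgr2b difference was not tested.

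Fibroblast markers ran in both directions, with 6 of the 13 positive and 7 negative. Their median of -0.20 was 0.02 without control replicate 1, -0.03 with quantile normalization and -0.07 with cyclic loess normalization. Thy1, a surface glycoprotein, had the smallest p, with 295.5, 274.5 and 238.3 in PTX samples, against 554.4, 558.2 and 509.2 in controls (log2 change -0.97, limma adjusted p = 0.0743). Its other, dimmer probe set had -0.59 with overlapping groups (limma adjusted p = 0.387). The brightest, Col3a1, had -0.22. The highest changes, named after their values were seen, were those of Lum (1.10, limma adjusted p = 0.236) and Postn (1.07, limma adjusted p = 0.274), both of the extracellular matrix, with all PTX values above all controls. Without control replicate 1 they were 0.74 and 0.79. The probe set of Postn belongs to those named rc_AA892, rc_AA893 or rc_AA894, which were low on that array.

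The 12 measured cardiomyocyte markers had a median of -0.28, with 11 of the 12 negative. It was -0.10 without control replicate 1, -0.02 with quantile normalization and -0.10 with cyclic loess normalization. Myh7 had -0.39 and Myl2 -0.27, or -0.21 and -0.04 without that array. On all 6 arrays the other Myh7 probe set had -0.09 with overlapping groups, and those of Myl2 had -0.15 and -0.16. In limma 0 genes of the fibroblast and cardiomyocyte lists passed, against 0.0763% of all tested probe sets. At an unadjusted p under 0.05 were 5 of 13 tested fibroblast and 1 of 11 tested cardiomyocyte markers, against 12.6% of all tested probe sets. The lists were chosen with earlier results known, so nothing is read from these counts. Without control replicate 1, Lum (higher, limma adjusted p = 0.00646) and the brightest Thy1 probe set (lower, 0.00771) passed. The other Thy1 probe set (0.458) did not.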

How the data were processed

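RNA of 3 PTX and 3 control cultures was read on 1-colour Affymetrix arrays, grouped and numbered as in their titles. Biotinylated cRNA was hybridised, per the labels' protocols, and the authors used GCOS, per the submitters' processing notes; no version is named in the sources used here, and no detection calls were used. The deposited table holds linear intensities, 8740 probe sets by 6 arrays. Their 2% trimmed means lay between 493 and 495, so no further scaling was applied, and 0 array pairs were identical. The number of arrays limits the precision.

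Of the probe sets, 7006 have 1 gene symbol, 308 several and 1426 none, and 6985 symbols were updated through RefSeq (GRCr8). Probe sets under the 40th percentile of mean log2(signal + 16) were left out, and 5244 were fitted with limma 3.58.1 in R 4.3.3 (lmFit, eBayes with an intensity trend, two-sided, Benjamini-Hochberg over all 5244, threshold 0.05). The procedure was tested on simulated data.

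The members and gene lists were chosen with earlier results of these data known. The genes named are all members, all measured Fc receptor genes, for each other list the gene of smallest p and the gene of highest mean, and the 5 probe sets closest to Fcgr2b. The promoter letters and the exceptions in the closing section were chosen after the data were seen. Each list gene was read by its brightest probe set. Alternatives were other pseudocounts (1 and 64), filters (none, 60th percentile), scalings (common median, quantile, cyclic loess) and variance models (no trend, robust), the replicate block, and each array left out with the filter kept.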

Additional observations from a re-analysis of the deposited data

How the results depend on the processing

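All 12 member log2 changes moved by less than 1 SD between replicates under each of the 16 settings tried, and those of Fcgr2b, Lyz2, Cd48, Cd53, Cd37 and the brightest Aif1 probe set kept their sign. The other tested Aif1 probe set went to -0.21 in its lowest setting, and all 5 probe sets under the filter took the other sign under 1 to 4 settings. With limma, 0 member probe sets passed in every setting but that without control replicate 1, where Fcgr2b did, so the count was 0 to 1 with single arrays left out. Among all probe sets the calls numbered 4, against 2 with a pseudocount of 1, 7 with 64, 2 with quantile normalization, 9 with robust variances, 0 without a trend (615 at an unadjusted p under 0.05), and 0 to 116 with single arrays left out. Those counts were 116 without control replicate 1, 29 without control replicate 3, 3 without control replicate 2, and 0 without PTX replicate 1, 2 or 3 (360, 375 and 376 at an unadjusted p under 0.05). With the replicate block 0 probe sets passed (552 at an unadjusted p under 0.05) and Fcgr2b had an adjusted p of 0.385. Same-numbered arrays had deviations from their group means that correlated at -0.09, -0.11 and -0.01, and differently numbered arrays at -0.05 to 0.10. With 3 arrays per group these values cannot decide whether the numbers pair the samples, and the labels do not tell. The median of the member genes stayed between 0.15 and 0.42 over all settings, averaging of each gene's probe sets included, while that of Fc receptor genes ranged from -0.14 to 0.54. The number of arrays and the lack of detection calls limit what can be said of Csf1r, Ptprc and Aif1.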

Other observations

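Several genes of leukocytes outside the members had groups that did not overlap but lay under the filter on low signals, so they were not tested, and they are named after their values were seen. Ptafr, the receptor for platelet-activating factor on myeloid cells, had 2.4, 25.8 and 29.7 with PTX, against 68.3, 46 and 57.3 in controls. Cd3g, a chain of the T cell receptor complex, had 2.2, 2 and 12.4 with PTX, against 21.2, 23.5 and 42.9 in controls. Lat, an adaptor of T and mast cells, had 7.6, 14.8 and 27.1 with PTX, against 30.1, 35.5 and 61.9 in controls. Cpa3, a mast cell carboxypeptidase, ran the other way with 23.1, 32.2 and 24 in PTX samples, against 2, 7.9 and 1.3 in controls. The lists of these genes were mixed in direction. Of 14 measured T and NK cell markers 10 had negative log2 changes and 4 positive, Cd4 (0.63) being the highest. Of 9 measured mast cell markers 4 were positive and 5 negative, Mcpt1 (-0.47) being the lowest. Of 16 measured Fc receptor signalling genes, the list of Lat, 11 were positive and 5 negative. Over all 8740 probe sets, every PTX array lay above every control array for 8.91% and below for 9.06%.

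Lyn, a kinase that phosphorylates both ITAMs and the ITIM of Fcgr2b, had the highest log2 change among the Fc receptor signalling genes, 0.81, with 53.3, 74.2 and 68.2 in PTX samples, against 31.1, 67.8 and 8.7 in controls. The groups overlapped by the second control array (limma adjusted p = 0.450). The mean of its control log2 values lay under the filter, so it was tested only through its PTX values. Cd14, the co-receptor for endotoxin on monocytes, had 271.7, 234.1 and 241.9 with PTX, against 226.3, 229.1 and 214.2 in controls, a log2 change of 0.15 and no overlap (limma adjusted p = 0.640). Its other probe set had 124.7, 166.5 and 182.1 with PTX, against 158.9, 123.6 and 138 in controls, and overlapped.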
